A study of Mus musculus with 6 samples.

Results

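Laminins are the cross-shaped heterotrimers of the basement membrane, each built from an alpha, a beta and a gamma chain that assemble inside the cell before secretion. Laminin-332, which holds the products of *Lama3* and *Lamb3*, is the main adhesive laminin of basal keratinocytes and is bound by integrins alpha6 beta4 in hemidesmosomes and alpha3 beta1 in focal contacts. Laminin-511 (*Lama5*, *Lamb1*, *Lamc1*) is also laid down under the epidermis, whereas laminin-411 (*Lama4*, *Lamb1*, *Lamc1*) is best known from vessel walls. The 9 chain genes *Lama1* to *Lama5*, *Lamb1* to *Lamb3* and *Lamc1* were taken by symbol from the 24982 genes listed in the expression files. *Lamc3*, listed in the same files, is given as 1 further chain that enters no count of the 9.

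RNA-seq was compared between 2 cell lines of C57BL/6 mouse keratinocytes from neonatal skin, with 3 libraries each. The KSFM-Ca2+ cells were established and kept in KSFM-Ca2+, a serum-free keratinocyte medium with little calcium. The DKSFM cells descend from them and were adapted to DKSFM, a defined keratinocyte medium, so that the line, its history and its medium cannot be told apart. No treatment was applied to either line, and both were grown on plates coated with collagen IV. Whether a replicate was its own culture is not given in the labels, so p-values measure only the spread between these libraries, which may be technical. Values are mean read coverage per base of each gene. Comparisons of levels between genes rest on the length used for each gene, which is not given. Summed over all genes, coverage came to 1601676, 1238411 and 1057750 in KSFM-Ca2+ replicates 1 to 3, and 1174348, 1239438 and 1170675 in DKSFM replicates 1 to 3. Each library was scaled by its total and a factor from the trimmed mean of M values, and this normalized coverage is the level given below.

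The basal keratinocyte markers *Krt5*, *Krt14*, *Trp63*, *Itga6* and *Itgb4* were present in all 6 libraries, with a summed level of 17460, 17870 and 17600 in KSFM-Ca2+ and 42940, 39110 and 43300 in DKSFM cells. *Krt14*, the most abundant of them, averaged 11975 ± 225 and 29719 ± 1517 (SD, n = 3 each), and *Krt5* 4684 ± 26.1 and 11148 ± 792. These genes carry the sum, while *Trp63* (log2 0.13) and *Itga6* (0.14) differed little and *Itgb4* fell (-0.74). Markers of fibroblasts and endothelial cells, which also make laminins in skin, were low or at 0 beside the basal markers. The part of such cells in the laminin levels was not tested. Of 8 fibroblast markers, 7 were listed at 0 in every library (*Col1a1*, *Col1a2*, *Col3a1*, *Pdgfrb*, *Dcn*, *Lum*, *Thy1*), and the summed level of the list was 1.14, 0.890 and 1.30 in KSFM-Ca2+ and 2.34, 2.10 and 2.23 in DKSFM cells, carried by *Pdgfra*. Of 5 endothelial markers, *Cdh5* and *Emcn* were listed at 0 throughout, and the list summed to 2.82, 3.16 and 3.30 against 8.28, 8.29 and 7.42, mostly *Pecam1*.

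*Lama3* and *Lamb3*, the listed chains of laminin-332, were lower in DKSFM than in KSFM-Ca2+ cells. *Lama3*, the alpha chain that carries the integrin-binding domains, had a level of 356, 364 and 366 in KSFM-Ca2+ replicates 1 to 3 and of 116, 110 and 118 in DKSFM replicates 1 to 3. *Lamb3*, the beta chain, was at 588, 617 and 611 against 304, 286 and 300. All KSFM-Ca2+ libraries lay above all DKSFM libraries for both genes, and libraries of 1 line were close together. The level was 3.16-fold higher in KSFM-Ca2+ cells for *Lama3* (log2 fold change of DKSFM over KSFM-Ca2+ -1.66 ± 0.03 (SE), limma adjusted p = 3.61e-09) and 2.04-fold for *Lamb3* (-1.03 ± 0.03, adjusted p = 4.17e-08). The 95% interval of the *Lamb3* log2 change, -1.11 to -0.95, includes a 2-fold change, and the interval of *Lama3* (-1.73 to -1.58) does not. Without DKSFM replicate 2 the *Lamb3* value was -0.995, and with quantile normalization it was -0.97. In bulk RNA, fewer cells that make a transcript and less of it per cell cannot be told apart.

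**Figure D1:**
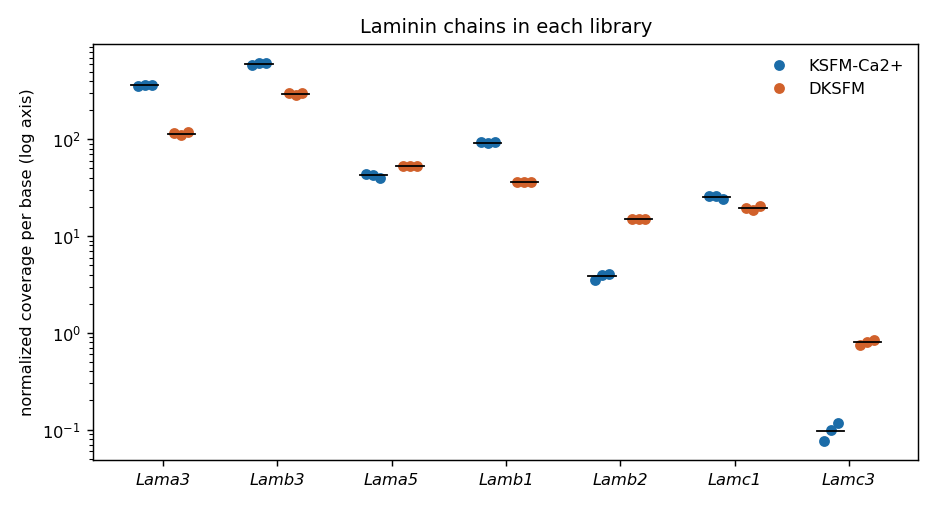
Normalized coverage per base (log axis) of 7 laminin chains in the 3 KSFM-Ca2+ and 3 DKSFM libraries, with 1 point per library and a bar at the mean. *Lama3* and *Lamb3* lie lower in DKSFM cells, and *Lamb2* rises from a mean of 3.82 to 15.0. The lines do not overlap for any of the 7 chains, as for 83.3% of all tested genes. *Lamc3* was tested only because of its level in DKSFM cells, so its lack of overlap shows little.

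The chains of laminin-511 did not move together. *Lama5*, its alpha chain, was at 44.2, 42.9 and 39.8 in KSFM-Ca2+ and at 52.7, 53.0 and 53.3 in DKSFM cells. *Lamb1*, the beta chain of laminin-511 and laminin-411, was at 93.4, 91.3 and 93.3 against 36.5, 35.9 and 35.9. *Lamc1*, the gamma chain shared by most laminins, was at 25.7, 26.0 and 24.0 against 19.4, 18.7 and 20.6. The DKSFM libraries were thus higher for *Lama5* and lower for *Lamb1* and *Lamc1*, without overlap. *Lama5* rose 1.25-fold (log2 0.33 ± 0.05, limma adjusted p = 0.000211), whereas *Lamb1* was 2.56-fold higher in KSFM-Ca2+ cells (-1.36 ± 0.03, adjusted p = 7.66e-09) and *Lamc1* 1.29-fold higher (-0.36 ± 0.06, adjusted p = 0.000376). With KSFM-Ca2+ replicate 3 as the only library of its line, *Lamc1* was at -0.29 with an adjusted p of 0.0151, the highest of 17 alternatives that began at 0.000178.

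*Lamb2*, the beta chain that replaces *Lamb1* in laminin-521, was the listed chain that rose most. Its level was 3.51, 3.96 and 4.01 in KSFM-Ca2+ and 15.1, 15.0 and 14.9 in DKSFM cells. Every DKSFM library was above every KSFM-Ca2+ library, a 3.86-fold difference (log2 1.95 ± 0.07, limma adjusted p = 9.9e-08). *Lamc3*, a gamma chain known from retina and peripheral nerve, was listed at 0.1 in each KSFM-Ca2+ library and at 0.7, 0.8 and 0.8 in the DKSFM libraries. These values lie near the rounding step of the files, *Lamc3* was tested only because of its level in DKSFM cells, and the log2 difference of 2.19 ± 0.25 (adjusted p = 5.62e-05) fell to 0.71 when the pseudocount was raised from 0.1 to 1.

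The alpha chains *Lama1*, *Lama2* and *Lama4* were listed at 0 in all 6 libraries. *Lama1* is characteristic of embryonic basement membranes, *Lama2* of muscle and nerve, and *Lama4* of endothelium. Coverage is written to 1 decimal, so 0 stands for any value below 0.05. Over the longest annotated coding transcript and with reads of 85 bases, that limit corresponds to about 5.6 reads for *Lama1*, 5.7 for *Lama2* and 3.6 for *Lama4* in a library. Laminin-411, which needs *Lama4*, therefore had its beta and gamma chain transcripts measured and its alpha chain transcript below this limit. By the same approximation the mean of *Lama3* stood for 44902 reads in KSFM-Ca2+ and 14222 in DKSFM cells, and that of *Lamb2* for 253 and 994. For *Lama3* this takes the coding transcript of 10548 bases, and with its other one, of 5551 bases, the reads would be fewer.

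Of the 9 listed chains, 6 passed the filter (normalized coverage of at least 0.5 in 3 or more libraries), and the other 3 were those at 0. All 6 were called at an adjusted p under 0.01, beside 9008 of 12409 tested genes (72.6%). 4 were lower in DKSFM cells, where 4606 tested genes were lower (37.1%), and 2 were higher, where 4402 were higher (35.5%). A call by itself is thus near the background, since most genes differed between the lines. With a fold of at least 2 as well, *Lama3*, *Lamb1* and *Lamb3* were lower, against 1307 of all tested genes (10.5%), and *Lamb2* was higher, against 1636 (13.2%). The libraries of the lines did not overlap for any of the 6 chains, as for 10336 tested genes (83.3%). The median log2 fold change was -0.70 over the 6 chains and 0.00 over all tested genes.

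**Figure D2:**
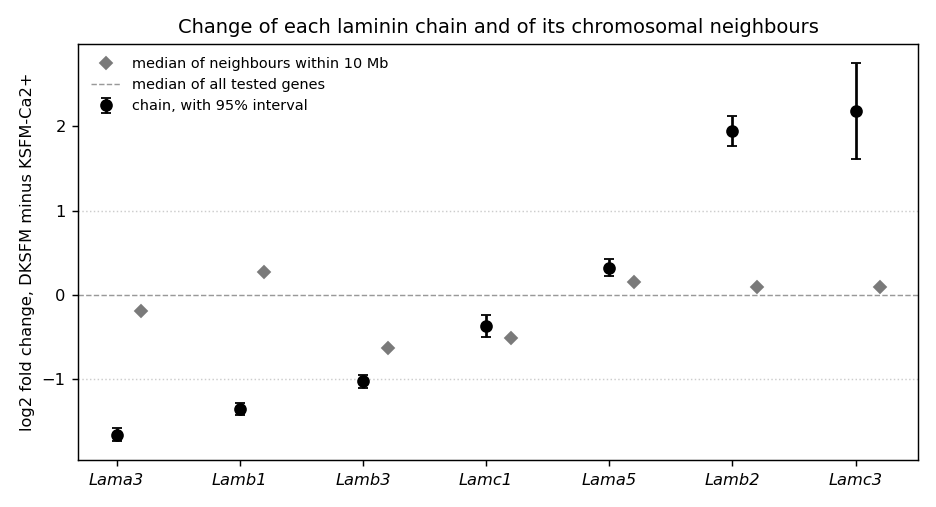
Log2 fold change of DKSFM over KSFM-Ca2+ for 7 laminin chains with 95% intervals, and the median change of tested genes starting within 10 Mb on either side (diamonds). Changes of the listed chains run from -1.66 for *Lama3* to 1.95 for *Lamb2*. *Lamc3* (2.19) is near the rounding step in KSFM-Ca2+ cells and is at 0.71 with a pseudocount of 1. The dashed line marks the median of all 12409 tested genes.

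In coverage per base, the order of the chains changed with the line. In KSFM-Ca2+ cells *Lamb3* (605 ± 15.2, SD, n = 3) was highest, followed without overlap by *Lama3* (362 ± 4.89), *Lamb1* (92.7 ± 1.20), *Lama5* (42.3 ± 2.29), *Lamc1* (25.2 ± 1.11) and *Lamb2* (3.82 ± 0.277). In DKSFM cells *Lamb3* (297 ± 9.68) was above *Lama3* (115 ± 4.05), and *Lama5* (53.0 ± 0.334) was above *Lamb1* (36.1 ± 0.356), with no overlap between neighbours in the order. *Lamc1* (19.6 ± 0.947) and *Lamb2* (15.0 ± 0.0651) came next. The length behind the *Lama3* coverage is not given (coding transcripts of 5551 and 10548 bases), so its place next to *Lamb3* is uncertain. *Lamb1* has 9917 exon bases and a longest coding transcript of 5784, whereas *Lama5* has 11388 for both. Whether *Lama5* and *Lamb1* change places therefore depends on the length used and is uncertain too. In all, 97.4% of tested genes had a lower mean level than *Lamb3* in KSFM-Ca2+ cells, and 94.1% in DKSFM cells.

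Because the chains changed unequally, the makeup of the laminin transcripts shifted. *Lama3* held 89.0%, 89.5% and 90.2% of summed alpha chain coverage in the KSFM-Ca2+ libraries and 68.7%, 67.5% and 68.9% in the DKSFM libraries. The remainder was *Lama5*, which thus went from a mean of 10.5% to 31.6%, with all DKSFM libraries above all KSFM-Ca2+ libraries. Among beta chains, *Lamb3* held 86.2% ± 0.385 (SD, n = 3) in KSFM-Ca2+ and 85.3% ± 0.352 in DKSFM cells, a small difference. The *Lamb1* share was 13.2% ± 0.407 against 10.4% ± 0.234, and the *Lamb2* share 0.545% ± 0.0289 against 4.31% ± 0.119. These shares are descriptions and were not tested.

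**Figure D3:**
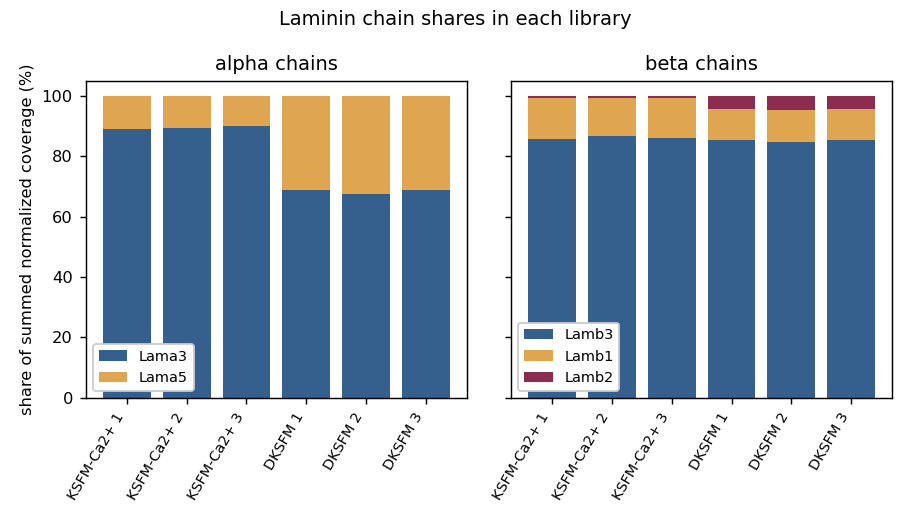
Share of summed normalized coverage (%) held by each alpha and beta laminin chain in each of the 6 libraries, as stacked bars. *Lama5* makes up 10.5% of alpha chain coverage on average in KSFM-Ca2+ cells and 31.6% in DKSFM cells, while *Lamb3* holds over 84% of beta chain coverage in every library.

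The ratio of partner chains within a trimer was compared in the same way. In laminin-332, *Lamb3* to *Lama3* was 1.65, 1.70 and 1.67 in KSFM-Ca2+ and 2.63, 2.60 and 2.55 in DKSFM cells, since *Lamb3* had fallen less. In laminin-511, *Lamb1* to *Lamc1* was 3.64, 3.51 and 3.9 against 1.88, 1.92 and 1.75, and *Lama5* to *Lamc1* was 1.72, 1.65 and 1.66 against 2.71, 2.83 and 2.59. The lines did not overlap for any of these 3 ratios. The ratio of *Lama5* to *Lamb1* rose from 0.457 ± 0.0265 in KSFM-Ca2+ to 1.47 ± 0.0224 in DKSFM cells. Which of these chains is the higher in a line depends on the length used for each gene, which is not given. *Lamb1* to *Lamb2* went from 24.3 ± 2.0 to 2.41 ± 0.0148. A ratio of coverage is not a ratio of protein chains, and protein was not measured in these files.

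Promoter windows were taken from a RefSeq table (GRCm38.p6), which held 5 of the listed chains (*Lama2*, *Lama5*, *Lamb1*, *Lamb2* and *Lamb3*) and not *Lama1*, *Lama3*, *Lama4* and *Lamc1*. The upstream parts for 2 chains that fell and 2 that rose are shown for comparison, 5′ to 3′ on the strand of the gene and ending before the first base of an annotated exon, with GGGCGG (the GC box bound by Sp1, either strand) in capitals. *Lamb3* is chr1:193301744-193301992 (+), *Lamb1* chr12:31265043-31265233 (+), *Lamb2* chr9:108479612-108479735 (+) and *Lama5* chr2:180225860-180226109 (-). The *Lamb3* part lies between exons within the span of the gene in GENCODE, which begins at chr1:193207699, and a second *Lamb3* window, chr1:193301993-193302292, starts in an exon and is not printed.
Lamb3: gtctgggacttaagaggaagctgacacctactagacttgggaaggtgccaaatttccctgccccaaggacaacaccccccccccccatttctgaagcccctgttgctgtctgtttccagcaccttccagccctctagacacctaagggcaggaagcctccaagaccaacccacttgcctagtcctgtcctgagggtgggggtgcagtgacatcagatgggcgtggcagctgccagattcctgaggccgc
Lamb1: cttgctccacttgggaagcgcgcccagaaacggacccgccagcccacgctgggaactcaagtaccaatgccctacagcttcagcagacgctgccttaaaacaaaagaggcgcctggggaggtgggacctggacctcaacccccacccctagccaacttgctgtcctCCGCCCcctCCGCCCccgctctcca
Lamb2: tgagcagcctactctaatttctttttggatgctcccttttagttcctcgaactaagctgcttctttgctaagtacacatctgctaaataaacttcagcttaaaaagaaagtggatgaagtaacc
Lama5: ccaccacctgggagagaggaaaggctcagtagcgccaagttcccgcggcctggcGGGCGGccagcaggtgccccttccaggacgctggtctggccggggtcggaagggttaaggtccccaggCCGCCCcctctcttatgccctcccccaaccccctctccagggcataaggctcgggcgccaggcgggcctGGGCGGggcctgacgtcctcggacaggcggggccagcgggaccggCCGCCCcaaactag
GGGCGG was found 4 times upstream of *Lama5*, 2 times upstream of *Lamb1* and 1 time in the window of *Lama2*, and was absent from the windows of *Lamb2* and *Lamb3*. It occurred in 35.7% of the 32851 promoter windows of 300 bases. TGANTCA, the AP-1 motif (N, any base), and CACGTG, an E-box, were in none of the windows of the 5 chains, and in 7.81% and 7.15% of all windows. The printed *Lama5* part had a GC content of 72.4%, that of *Lamb1* 63.9%, that of *Lamb3* 58.6% and that of *Lamb2* 37.9%. A match is a string of letters and not a shown binding site, and its absence here concerns these windows alone.

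The 7 chains that were tested lie on 5 chromosomes. *Lamc1* (chr1:153218922-153332786, minus strand) and *Lamb3* (chr1:193207699-193343878, plus strand) are both on chromosome 1. The other positions are chr2:180176373-180225859 for *Lama5*, chr9:108479736-108490530 for *Lamb2*, chr12:31265234-31329644 for *Lamb1* and chr2:31887291-31946539 for *Lamc3* (GRCm38), and *Lama3* is on chromosome 18. Neighbouring genes on chromosome 1 were also lower in DKSFM cells. Of 54 other tested genes starting within 10 Mb of *Lamb3* on either side, 42 had a negative log2 fold change, and their median was -0.63. Around *Lamc1* these values were 53 of 67 and -0.51, with a median of -0.43 over 704 tested genes of the chromosome. Around *Lama3* they were 35 of 52 and -0.188, with a median of -0.28 over chromosome 18. The medians around *Lama5*, *Lamb1*, *Lamb2* and *Lamc3* were positive, at 0.156, 0.275, 0.096 and 0.0952. Relative to its neighbours *Lamb3* was at -0.40, and *Lamc1* at 0.14, the opposite sign to its own change. With no filter, which lets genes under 0.5 into the neighbours, *Lamc1* was at -0.00312, so this sign depends on the filter. *Lama3* was at -1.47 relative to its neighbours, *Lamb1* at -1.63, *Lama5* at 0.17 and *Lamb2* at 1.85, each with the sign of its own change. The *Lama5* value was 0.106 without KSFM-Ca2+ replicate 3 and 0.229 without replicate 1. The paper reports tetraploid and hyperdiploid cells in its KSFM-Ca2+ lines and gives no chromosome count for the DKSFM-adapted cells. The part of the chromosome in the change of *Lama3*, *Lamb3* and *Lamc1* was not tested.

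Reads of the chains could be told from those of other genes. For each of these 10 chains, 0% of the 85-base windows of its longest coding transcript occurred in the annotated transcripts of another gene. *Lama2* shares 631 of 16338 exon bases with a transcript on the opposite strand, *Lamc3* 382 of 6091 and *Lama3* 197 of 10745, while *Lamb3*, whose annotated span covers *G0s2* and *Hsd11b1*, shares no exon base with them. *Lama3* has a short and a long coding transcript, of 5551 and 10548 bases, and its coverage is 1 value for both.

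The tested integrins of the laminin receptor list fell to different degrees, apart from *Itga6*, which stayed near its level. *Itga3*, the alpha subunit of the alpha3 beta1 integrin, was at 969, 1001 and 1033 in KSFM-Ca2+ and at 256, 252 and 251 in DKSFM cells. *Itgb1*, its beta subunit, was at 454, 458 and 466 against 173, 170 and 165. *Itgb4*, the beta subunit of the hemidesmosome, was at 326, 323 and 314 against 197, 182 and 197. DKSFM libraries were the lower ones for each of these 3 genes, by 3.96-fold for *Itga3* (log2 -1.98 ± 0.03, limma adjusted p = 1.08e-09), 2.71-fold for *Itgb1* (-1.44 ± 0.03, adjusted p = 3.42e-09) and 1.67-fold for *Itgb4* (-0.74 ± 0.04, adjusted p = 4.43e-07). *Itga6*, which pairs with *Itgb4*, was at 264, 260 and 252 against 283, 278 and 294, a log2 difference of 0.14 ± 0.03 (adjusted p = 0.00388). This call was lost without KSFM-Ca2+ replicate 2 (0.14, adjusted p = 0.0129) or 3 (0.12, adjusted p = 0.013), without DKSFM replicate 1 (0.16, adjusted p = 0.0113) or 3 (0.12, adjusted p = 0.0149) and with 4 other settings, over a range of 0.000656 to 0.0176. The ratio of *Itga3* to *Itga6* went from 3.88 ± 0.216 (SD, n = 3) to 0.888 ± 0.0311.

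Of 14 laminin receptor genes, 11 were tested. 8 were lower and 3 higher in DKSFM cells, where 37.1% of all tested genes were lower and 35.5% higher. By at least 2-fold 3 were lower and 1 was higher (10.5% and 13.2% of all), and the median log2 fold change was -0.20. *Bcam*, a receptor for laminin alpha5 chains, went the other way from *Itga3*, *Itgb1* and *Itgb4*: it was at 55.5, 53.1 and 53.6 in KSFM-Ca2+ and 171, 167 and 179 in DKSFM cells. All DKSFM libraries were higher, by 3.18-fold (log2 1.67 ± 0.04, adjusted p = 5.97e-09 by limma). *Itga2*, a collagen and laminin receptor subunit, was low, with means of 5.78 ± 0.220 and 1.6 ± 0.179 (SD, n = 3), and fell by 1.80 on the log2 scale (adjusted p = 1.48e-06). Dystroglycan (*Dag1*), which binds laminin through its sugar chains, was abundant in both lines, at 832 ± 32.4 and 724 ± 23.6 (log2 -0.20, adjusted p = 0.00127). That call was lost with quantile normalization (-0.13, adjusted p = 0.0141) and with KSFM-Ca2+ replicate 3 alone (-0.15, adjusted p = 0.0291), where the alternatives began at 0.00068. The syndecans *Sdc1* (-0.23) and *Sdc4* (-0.20) and the tetraspanin *Cd151* (-0.19), which associates with laminin-binding integrins, fell slightly, and *Sdc2* rose (0.43). *Itga9* was listed at 0 in all libraries, and *Itga1* and *Itga7* were under the filter. *Bcam*, *Itga6* and *Itgb1* were among genes the study picked from these same libraries, so their direction is not independent evidence.

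**Figure D4:**
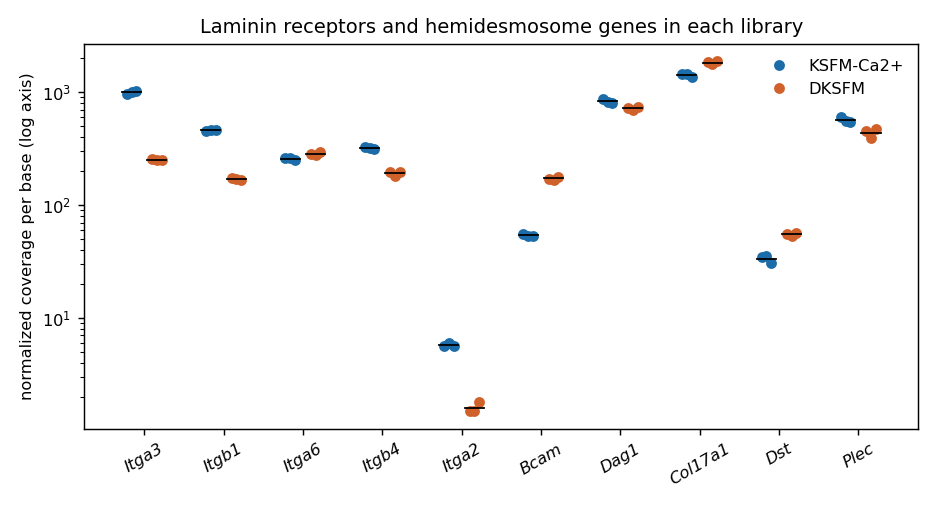
Normalized coverage per base (log axis) of 10 laminin receptor and hemidesmosome genes in each library, with a bar at the mean of each line. *Itga3* falls from a mean of 1001 in KSFM-Ca2+ to 253 in DKSFM cells, while *Itga6* stays between 252 and 294 in the 6 libraries.

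All 6 hemidesmosome genes were tested, 3 lower and 3 higher in DKSFM cells, none by 2-fold, beside 72.6% of all tested genes called (37.1% lower, 35.5% higher). The median was -0.03. *Col17a1*, the transmembrane collagen that binds laminin-332 from the basal cell, was at 1458, 1448 and 1361 in KSFM-Ca2+ and at 1854, 1773 and 1875 in DKSFM cells. *Dst*, the gene of the plaque protein BP230, was at 34.7, 35.1 and 30.7 against 55.8, 52.8 and 56.2. *Plec*, the gene of the keratin linker plectin, was at 606, 557 and 548 against 450, 390 and 472. Thus *Col17a1* (log2 0.37 ± 0.04, limma adjusted p = 2.64e-05) and *Dst* (0.71 ± 0.06, adjusted p = 8.08e-06) rose while *Plec* (-0.39 ± 0.07, adjusted p = 0.0011) fell, beside the lower *Itgb4*. The *Plec* call was lost with KSFM-Ca2+ replicate 3 as the only library of its line (-0.33, adjusted p = 0.0201), the highest of a range that began at 0.000406.

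Other basement membrane components went to both sides. Of 21 genes, 13 were tested, with 8 higher and 4 lower in DKSFM cells (35.5% and 37.1% of all tested genes), 6 of the 8 by at least 2-fold (13.2% of all), and a median log2 fold change of 0.82. 3 of the 8 (*Col4a4*, *Fbln1*, *Fras1*) were under 0.5 in KSFM-Ca2+ cells and were tested because of their level in DKSFM cells. With 0.5 required in every library, 5 were higher and 4 lower of 10 tested (34.6% and 38.6% of 11112 genes), 3 of the 5 by 2-fold, and the median was 0.21. *Col4a1*, an alpha chain of the collagen IV network, was at 89.1, 83.7 and 83.9 in KSFM-Ca2+ and 276, 249 and 272 in DKSFM cells, a 3.10-fold difference without overlap (log2 1.63 ± 0.05, limma adjusted p = 1.99e-08). *Fbln1*, a matrix glycoprotein, was listed at 0.1, 0.1 and 0.2 against 40.2, 42.3 and 41.6, and *Fras1*, a protein of the sublamina densa, at 0 in all KSFM-Ca2+ libraries against 2.8, 2.8 and 2.6. For *Fbln1* the DKSFM libraries were far above the rounding step and the KSFM-Ca2+ libraries at or next to it. *Col18a1* (623 ± 22.4 against 368 ± 9.49, log2 -0.76) and *Fbln2* (320 ± 6.57 against 194 ± 11.1, log2 -0.72) were the most abundant members besides *Col4a1* and fell. The gene of the heparan sulfate proteoglycan agrin, which binds laminin, was at 44.1 ± 1.44 against 43.3 ± 0.526 (*Agrn*, log2 -0.03, 95% interval -0.12 to 0.06, adjusted p = 0.545). Nidogens, which link laminin to collagen IV, were listed at 0 in every library (*Nid1*, *Nid2*). *Col4a1*, *Col4a2* and *Col4a5* had been picked by the study from these libraries.

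Enzymes known to process laminins were mixed. Of 9 genes, 7 were tested, 5 higher and 2 lower in DKSFM cells (35.5% and 37.1% of all tested genes), with a median of 0.77. *Tll1* and *Plat*, both higher, did not reach 0.5 in every KSFM-Ca2+ library. With 0.5 required in every library, 3 of 5 tested were higher and 2 lower (34.6% and 38.6% of 11112 genes), and the median was 0.52. *Bmp1*, whose product cleaves laminin chains, was at 155 ± 3.22 in KSFM-Ca2+ and 122 ± 0.542 in DKSFM cells (SD, n = 3; log2 -0.34, adjusted p = 8.37e-06 by limma). *Plau*, the urokinase gene, went from 160, 160 and 172 to 39.3, 38.6 and 38.1, a 4.23-fold difference, whereas *Mmp14* was at 103 ± 0.544 against 148 ± 4.68 (log2 0.52). *Mmp2* went from 2.13, 2.47 and 2.71 to 13.5, 16.5 and 16 (log2 2.60), and *Tll1*, a relative of *Bmp1*, from 0.305 ± 0.0729 to 1.94 ± 0.125 (log2 2.35, near the rounding step in KSFM-Ca2+ cells). With a pseudocount of 1 the log2 value of *Tll1* was 1.17. *Plau* and *Mmp2* were also among the genes picked by the study.

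**Figure D5:**
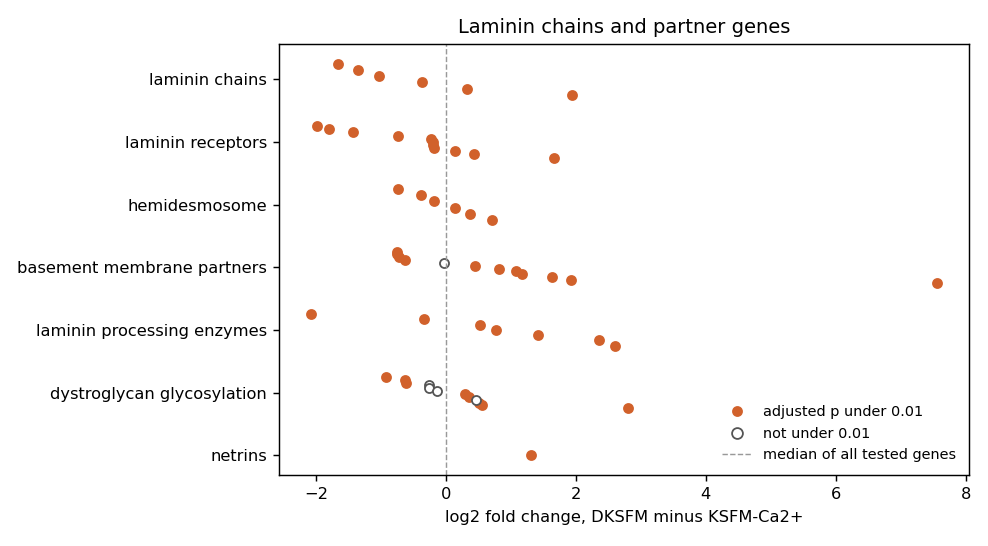
Log2 fold change of DKSFM over KSFM-Ca2+ for each tested gene of the laminin chain list and 6 partner lists, filled where the adjusted p was under 0.01, with the median of all tested genes dashed (*Fras1*, at 0 in KSFM-Ca2+ cells, is not drawn). Laminin chains and receptors spread to both sides, and 8 of 13 tested basement membrane partners are called as higher, 3 of them under 0.5 in KSFM-Ca2+ cells.

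Genes that build the laminin-binding sugar of dystroglycan were split. Of 15 symbols reported here 12 were listed and tested, with 3 lower, 5 higher and 4 not called, and a median of 0.08. 66.7% were thus called, against 72.6% of all tested genes. *Large2*, which extends this sugar, rose from 10.6, 9.89 and 9.68 to 73.3, 70.0 and 67.8, with no overlap (6.94-fold, log2 2.80 ± 0.05, limma adjusted p = 2.81e-09). Among the most abundant members, *B3galnt2* fell (160 ± 4.89 against 84.4 ± 0.423, log2 -0.92), and *Tmem5* (log2 0.35) and *Pomgnt1* (0.29) rose. Of 6 netrin genes, whose products carry laminin-like domains, only *Ntn4* was tested. It was at 9.88 ± 0.485 in KSFM-Ca2+ and 24.6 ± 0.813 in DKSFM cells (SD, n = 3; log2 1.31, adjusted p = 2.15e-07). *Ntng2*, under the filter, was at 0.762, 0.692 and 0.472 against 0 in each DKSFM library.

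Markers of other cell types are set beside these lists. The suprabasal keratinocyte list summed to 24.8, 24.9 and 25.7 in KSFM-Ca2+ and 22.1, 24.2 and 22.7 in DKSFM cells, but its members went apart. *Ivl*, the most abundant, fell (21.3 ± 0.185 against 13.5 ± 0.37, SD, n = 3; log2 -0.66, limma adjusted p = 3.7e-06), and *Lor* rose from 0.331 ± 0.247, near the rounding step, to 3.99 ± 0.223 (log2 3.42, adjusted p = 7.01e-05), and would not have passed the filter without the DKSFM libraries. With a pseudocount of 1 the log2 value of *Lor* was 1.92. *Krt10* rose (3.49 ± 0.154 against 5.0 ± 0.953, log2 0.49, adjusted p = 0.00963), a call lost in 11 of 17 alternatives (0.00633 to 0.104), and *Krt1*, under the filter, was at 0 against 0.514 ± 0.294. The melanocyte list summed to 3.96, 3.96 and 4.60 against 17.3, 18.6 and 18.3, mostly *Mitf*, with *Dct* and *Tyr* at 0 and *Pmel*, under the filter, at 0.594 ± 0.184 against 0.343 ± 0.145. The leukocyte list stayed under 0.2 in all libraries. *Mitf*, *Pecam1* and *Pdgfra*, each the 1 tested member of its list, were higher in DKSFM cells, as were *Lama5*, *Lamb2* and *Col4a1*, and their part in these differences was not tested.

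The genes with the pattern nearest to *Lama3* over the 6 libraries were *Pbk* (root mean square difference 0.0183 in log2 units centred on each gene), *Phldb2* (0.0236) and *Zfp608* (0.0269), among 8682 genes with a mean level of at least 10. Those nearest to *Lamb3* were *Pkm* (0.0171), *Ssr1* (0.0181) and *P4ha1* (0.0224). With 2 lines, such likeness mainly reflects the size of the difference between them. *Phldb2* changed by -1.62 and *Pbk* by -1.65 on the log2 scale, close to *Lama3*, and *Pkm* by -1.03. *Pbk* and *Phldb2* were also among the genes picked by the study from these libraries.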

How the data were processed

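RNA-seq of 6 libraries (3 KSFM-Ca2+, 3 DKSFM) was used. Poly(A) libraries had been made with strand kept and read from 1 end over 85 bases. Alignment was by STAR against mm10, and the authors used DESeq2 to compare the lines. Deposited values are a coverage signal, the mean per base of each gene to 1 decimal, not adjusted for depth. How coverage was computed is not given in the sources used here. Because coverage is not a count, DESeq2 was not used here.

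Coverage was scaled by the trimmed mean of M values without weights (30% of M, 5% of A). Genes with at least 0.5 in 3 libraries were kept, or in 2 where a library was left out. log2(normalized coverage + 0.1) was fitted with limma 3.58.1 (R 4.3.3, intensity trend, no covariate, two-sided), with Benjamini-Hochberg adjustment over all tested genes and a threshold of 0.01. Fold changes are on this scale, which understates changes of low genes. The procedure was tested on simulated data. The files hold depth of each library only as total coverage, so no counting interval is given.

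Members and lists were chosen with earlier results of these data known. Named genes were all chains, receptors and hemidesmosome genes tested, and of other lists the 3 most abundant tested genes and the 2 with the largest change; *Agrn*, *Nid1*, *Nid2*, *Col4a2*, *Col4a4*, *Col4a5*, *Plat*, *Ntng2* and the markers were named after their values were seen. Alternatives were other scalings, pseudocounts, filters, thresholds and variance models, a replicate block, treat, each library left out, the libraries marked as combined only and changes relative to chromosomal neighbours. Some genes of these lists, and the marker list of 1 further cell type, are not reported here. Likeness was the root mean square difference of centred log2 values. Positions are from GENCODE M21 (GRCm38, the same assembly as mm10) and promoter windows from RefSeq. Python 3.11.15 and matplotlib 3.10.9 were used.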

Additional observations from a re-analysis of the deposited data

How the results depend on the processing

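Of 111 values of the 7 tested chains under 16 alternatives (the looser threshold of 0.05, which cannot undo a call, left out), 110 kept their direction and their side of the threshold. The exception was *Lamc1* with the libraries marked as combined only (KSFM-Ca2+ replicate 3 and 3 DKSFM libraries). There the lone library is assumed to vary like the other line. The 111 values include *Lamc3*, tested only because of its level in DKSFM cells, so its kept direction shows little. Its log2 value moved from 2.19 to 0.71 with a pseudocount of 1. Relative to its chromosomal neighbours *Lamc1* reversed to 0.14, but was at -0.00312 with no filter, and the cause was not tested. For 47 other named genes, direction and side of the threshold were kept in 715 of 748 values. *Itga6*, *Dag1*, *Plec*, *Trp63*, *Krt10* and *Pdgfra* lost their call in some of the rest, and *Agrn*, not called, turned from -0.03 to 0.03 with the libraries marked as combined only. *Col4a4* and *Plat* are not among the 47. *Fras1*, *Fbln1*, *Tll1* and *Lor* are, but passed the filter only with the DKSFM libraries, so their kept direction shows little.

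The 2-fold counts over all genes moved. A filter on every library left 955 genes lower and 1032 higher, since it removes genes near 0 in either line and with them 5 higher partner genes. With treat, which tests against 2-fold, 785 were lower and 1062 higher. Under treat 2 chains were lower in place of 3, as with quantile normalization and without DKSFM replicate 2. With quantile normalization the *Lamb2* share was 0.590% in KSFM-Ca2+ and 4.14% in DKSFM cells and the *Lamb3* share 85.7% in DKSFM cells, and the cause was not tested.

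Deviations of same-numbered libraries from the means of their lines correlated at -0.00508, 0.0239 and -0.0061, so no shared replicate signal was seen. Whether replicates of the same number were paired is not given in the labels, and these values cannot settle it. With a replicate block 8724 genes were called in place of 9008 and all 6 tested chains were, and *Itga6*, *Trp63* and *Krt10* lost their call. *Lamc3*, *Fras1*, *Fbln1*, *Tll1* and *Lor* had a line near the rounding step of 0.1, which limits their folds.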
